A study of Mus musculus with 50 samples.

Results

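The 50 mammary tumour biopsies of this series were divided into groups chosen by the measured level of Gm7609, a predicted gene that lies beside Sp110 and Sp100 on mouse chromosome 1. A tumour counted as Gm7609-high at a log2 value of 7.65 or more, which 18 of the 50 tumours reached, and as Gm7609-low below it, which left 32. The tumours arose spontaneously in female mice in which the MMTV promoter, active mainly in mammary epithelium, drives the ErbB2 oncogene. The mice were the offspring of C57BL/6J by FVB/NJ hybrids crossed back to FVB/NJ MMTV-Erbb2 animals, so both groups share the transgene and the cross, and no label separates them. Each biopsy was taken before any drug was given, and 1 tumour gave 1 Affymetrix array. The labels name doxorubicin in one field and docetaxel in another, and they give no age. No label gives the genotype at chromosome 1, and genotypes were not used here.

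The comparison asks whether genes linked to Gm7609, or genes of the interferon response, differ between the groups. Sp100 and Sp110 are nuclear proteins that read chromatin. Sp100 is a constituent of PML nuclear bodies, and Sp110 is known in the mouse for macrophage resistance to intracellular bacteria. Both genes are themselves induced by interferon. Type I interferons signal through the kinases JAK1 and TYK2 and switch on antiviral genes that carry an interferon-stimulated response element. Interferon gamma raises the immunity-related GTPases, the guanylate-binding proteins and antigen presentation.

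The promoters at the locus are shown to describe how alike they are. They do not show which transcripts a probe set can read, since transcripts were not aligned. They are RefSeq sequences of build GRCm38.p6, from 250 bases before to 50 bases after the start, and belong to the reference genome, not to these tumours. Capitals mark ACTTTCNTTTTTCTTTTC, a stretch that was read from these very promoters after their sequences were seen. The windows are chr1:85199361-85199660 on the plus strand for Gm7609, chr1:85649764-85650063 on the plus strand for Sp100, chr1:85598761-85599060 on the minus strand for Sp110 and chr1:85270517-85270816 on the minus strand for C130026I21Rik, which has no match.
Gm7609: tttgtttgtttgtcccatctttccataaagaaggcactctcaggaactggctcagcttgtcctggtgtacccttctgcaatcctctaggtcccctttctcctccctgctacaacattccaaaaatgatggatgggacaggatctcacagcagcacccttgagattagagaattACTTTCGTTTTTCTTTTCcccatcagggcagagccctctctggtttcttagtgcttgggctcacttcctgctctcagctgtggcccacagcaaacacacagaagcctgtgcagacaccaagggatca
Sp100: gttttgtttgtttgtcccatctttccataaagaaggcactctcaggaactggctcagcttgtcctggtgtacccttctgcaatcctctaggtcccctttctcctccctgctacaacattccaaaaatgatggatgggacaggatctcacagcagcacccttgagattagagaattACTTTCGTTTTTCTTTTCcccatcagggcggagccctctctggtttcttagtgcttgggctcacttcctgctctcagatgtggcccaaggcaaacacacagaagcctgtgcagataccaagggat
Sp110: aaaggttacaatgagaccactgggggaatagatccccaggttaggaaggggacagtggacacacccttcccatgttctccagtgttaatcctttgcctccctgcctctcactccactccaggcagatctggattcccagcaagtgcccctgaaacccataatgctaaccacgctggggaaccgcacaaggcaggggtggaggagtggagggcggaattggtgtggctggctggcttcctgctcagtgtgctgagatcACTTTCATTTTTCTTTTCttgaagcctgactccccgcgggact
C130026I21Rik: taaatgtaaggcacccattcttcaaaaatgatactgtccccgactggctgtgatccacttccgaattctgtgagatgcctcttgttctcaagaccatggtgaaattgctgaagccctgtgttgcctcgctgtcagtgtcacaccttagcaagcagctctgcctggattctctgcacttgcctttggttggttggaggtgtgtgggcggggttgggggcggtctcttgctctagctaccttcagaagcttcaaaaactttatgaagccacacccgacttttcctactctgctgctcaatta
In a local alignment the Gm7609 and Sp100 promoters were identical at 293 of 298 bases (98.3%). The promoter of C130026I21Rik, another predicted gene of the cluster, matched that of Sp140 at 254 of 255 bases (99.6%). On both strands, the marked stretch was found in 4 of the 32851 mouse promoter windows of the same length (0.0122%), which belong to Gm7609, Sp110 and, with 2 windows, Sp100. Sp110 has another window, chr1:85603842-85604141 on the minus strand, which has no match and is not shown.

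None of the cluster's promoter windows held GAAA followed, after any 2 bases, by GAAA again, the core of the interferon-stimulated response element, on either strand. It is marked in capitals in 2 interferon-induced genes for contrast, Isg15 at chr4:156200769-156201068 on the minus strand and Ifit1 at chr19:34640639-34640938 on the plus strand. In Isg15 the matches overlap, and in Ifit1 they read on the opposite strand. Only the spacing of 2 bases was searched. In Gm7609, Sp100 and Sp110 the stretch marked further above, read on the opposite strand, holds GAAA repeats at other spacings.
Isg15: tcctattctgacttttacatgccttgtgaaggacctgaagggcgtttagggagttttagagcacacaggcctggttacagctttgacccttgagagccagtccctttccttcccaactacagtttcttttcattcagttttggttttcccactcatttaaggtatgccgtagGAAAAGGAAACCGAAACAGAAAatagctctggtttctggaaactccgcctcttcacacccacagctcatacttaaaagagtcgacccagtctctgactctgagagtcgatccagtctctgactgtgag
Ifit1: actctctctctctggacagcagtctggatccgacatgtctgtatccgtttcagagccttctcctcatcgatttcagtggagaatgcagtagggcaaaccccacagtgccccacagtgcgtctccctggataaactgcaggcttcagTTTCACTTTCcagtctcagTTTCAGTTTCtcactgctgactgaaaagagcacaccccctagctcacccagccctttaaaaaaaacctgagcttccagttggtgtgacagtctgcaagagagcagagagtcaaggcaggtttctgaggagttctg
The element was present in 3.44% of all 32851 promoter windows and in 459 of the 12862 tested genes that have one (3.57%). A match is a description of letters, not a binding site.

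Gm7609 chose the groups, and its level is given with no test. It had a lowest, median and highest log2 value of 7.99, 8.84 and 9.97 in the Gm7609-high tumours, against 5.52, 6.53 and 7.37 in the Gm7609-low tumours. The tumours nearest to the threshold were mid79 at 7.99 on the high side and mid99 at 7.37 on the low side. Their gap of 0.62 was the widest between any neighbouring tumours, the next being 0.5. The rule's companions Sp110, Sp100 and C130026I21Rik, and the neighbouring Csprs, were likewise described and not tested, since the first 3 were named with the split and Csprs shares probe sets with Gm7609.

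C130026I21Rik had 6.35, 7.03 and 7.82 in the Gm7609-high tumours, against 5.60, 6.07 and 6.60 in the Gm7609-low tumours, a mean difference of 1.01. Csprs, a gene related to Sp100, had 7.48, 8.11 and 8.52 in the Gm7609-high tumours, against 6.13, 6.89 and 7.54 in the Gm7609-low tumours, a mean difference of 1.19. For both genes the groups met only at their edges at the probe set used. Sp110 had 7.19, 8.48 and 8.74 in the Gm7609-high tumours, against 6.46, 7.07 and 8.0 in the Gm7609-low tumours, a mean difference of 1.15. Sp100 had 6.89, 8.43 and 9.92 in the Gm7609-high tumours, against 5.74, 6.69 and 7.78 in the Gm7609-low tumours, a mean difference of 1.70. Sp110 and Sp100 overlapped over a wider range, through the lower of the high tumours.

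**Figure D1:**
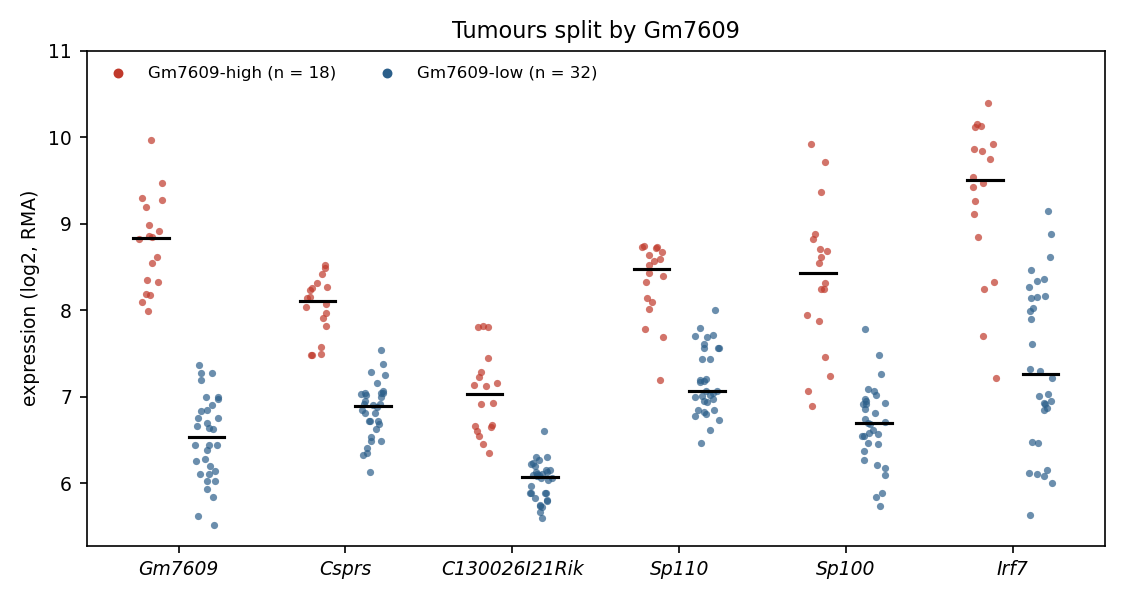
Expression of Gm7609, 3 companions of the split, Csprs and Irf7 in each tumour (y axis, log2 RMA value), with Gm7609-high tumours in red on the left of each pair, Gm7609-low tumours in blue on the right, and the median as a bar. Gm7609 leaves a gap of 0.62 by the choice of the threshold, while the other genes overlap.

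The probe sets of the cluster did not all show the same difference. Sp100 had 4 probe sets of its own, with mean differences of 2.70, 2.16, 1.70 and 0.50, and the first pair did not overlap between the groups. A probe set annotated to both Gm7609 and Sp100 also did not overlap, with 7.65, 8.51 and 9.11 in the Gm7609-high tumours, against 4.97, 6.31 and 7.26 in the Gm7609-low tumours. The 4 probe sets annotated to both Csprs and Gm7609 differed by 2.67 to 2.87. Csprs had 3 probe sets of its own, which differed by 1.70, 1.66 and 1.19. The first ran from 5.44 to 8.82 in the Gm7609-high and from 4.59 to 6.91 in the Gm7609-low tumours. C130026I21Rik also had 3, which differed by 1.01, 0.79 and 0.64. The last ran from 6.42 to 7.11 in the Gm7609-high and from 5.52 to 7.17 in the Gm7609-low tumours. Sp110 had 3 probe sets of its own, which differed by 1.15, 0.75 and 0.19. The Sp110 set at 0.19 had means of 3.62 in the Gm7609-high and 3.43 in the Gm7609-low tumours. The Sp100 set at 0.50 had means of 4.27 and 3.77 in the same order. These means lay under 4.39, the level below which genes were left out. The small differences of these sets therefore cannot show whether probe sets of a gene disagree. Genes of this locus cannot be told apart where a probe set names several of them, so the level of a single gene is uncertain.

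Before the wider comparison, 3 arrays need to be set apart. The arrays of mid79, mid60 and mid100 had a mean correlation with the other arrays under 0.96, and all 3 were Gm7609-high, so that 3 of 18 Gm7609-high and 0 of 32 Gm7609-low arrays were of this kind. The median of that correlation was 0.976 in the Gm7609-high and 0.979 in the Gm7609-low tumours. These arrays also carried markers of other tissues. The mean level of 9 adipocyte genes reached 11.71 in the Gm7609-high tumours and 7.47 there without the 3 arrays, against 6.82 in the Gm7609-low tumours. The mean of 10 luminal epithelial genes, which mark the labelled tissue, was 6.84, 8.94 and 9.29 in the Gm7609-high tumours, against 8.71, 8.86 and 9.02 in the Gm7609-low tumours, and its lowest value was 8.66 without the 3 arrays. The 3 arrays mid79, mid100 and mid60 also held the highest Sp100 values, 9.92, 9.71 and 9.37, and without them Sp100 differed by 1.44. The main counts are therefore given with and without them. Other results are for all arrays unless stated.

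Across 16634 tested genes, Gm7609 left out, limma called 1403 genes higher (8.43%) and 1699 lower (10.2%) in the Gm7609-high tumours, at a Benjamini-Hochberg adjusted p under 0.05. Those counts include the 3 companions and Csprs. Without the 3 arrays the counts were 1152 higher (6.93%) and 1085 lower (6.52%), with 883 and 935 genes shared with the calls on all arrays. At the probe set taken for each gene, no gene other than Gm7609 separated the groups without overlap. Of the called genes, 80 were at least 2-fold higher and 42 at least 2-fold lower, so most differences were small. The median difference over all tested genes was -0.02.

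Genes linked to Gm7609 were called at a lower share than genes in general. Of the 97 tested genes within 50 places on either side of it by gene order, the companions left out, 3 were higher and 9 lower, together 12.4%, against 18.6% of all tested genes called in either direction. Without the 3 arrays 7 of the 97 were called, against 13.4% of all tested genes. Among the nearest 17 genes, within 10 places, 1 was called. It is Slc19a3, a thiamine transporter, which had 4.01, 4.49 and 5.26 in the Gm7609-high tumours, against 4.18, 4.77 and 6.70 in the Gm7609-low tumours (difference -0.42 ± 0.14 SE, adjusted p = 0.0257). The groups overlapped over most of their range.

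The genes that flank the cluster differed little. Trip12, a ubiquitin ligase gene to one side, differed by -0.02 ± 0.05 SE (adjusted p = 0.821). Cab39, which encodes a partner of the kinase LKB1 and lies on the other side, differed by 0.01 ± 0.05 SE (adjusted p = 0.897). Fbxo36 differed by -0.17 ± 0.07 SE (adjusted p = 0.0867), and A630001G21Rik, beyond Sp100, by 0.05 ± 0.09 SE (adjusted p = 0.708). Pid1, beyond Trip12, differed by -0.03 ± 0.21 SE (adjusted p = 0.943), and by -0.33 without the 3 arrays (adjusted p = 0.25). With scores of fibroblast, endothelial, macrophage and T and NK cell genes held constant, Pid1 was called lower, at -0.655 ± 0.17 SE (adjusted p = 0.0119). Gm2427, inside the cluster, differed by 0.25 ± 0.09 SE (adjusted p = 0.0549). The differences above 1 in this stretch were at C130026I21Rik, Sp110 and Sp100, which were named with the split.

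**Figure D2:**
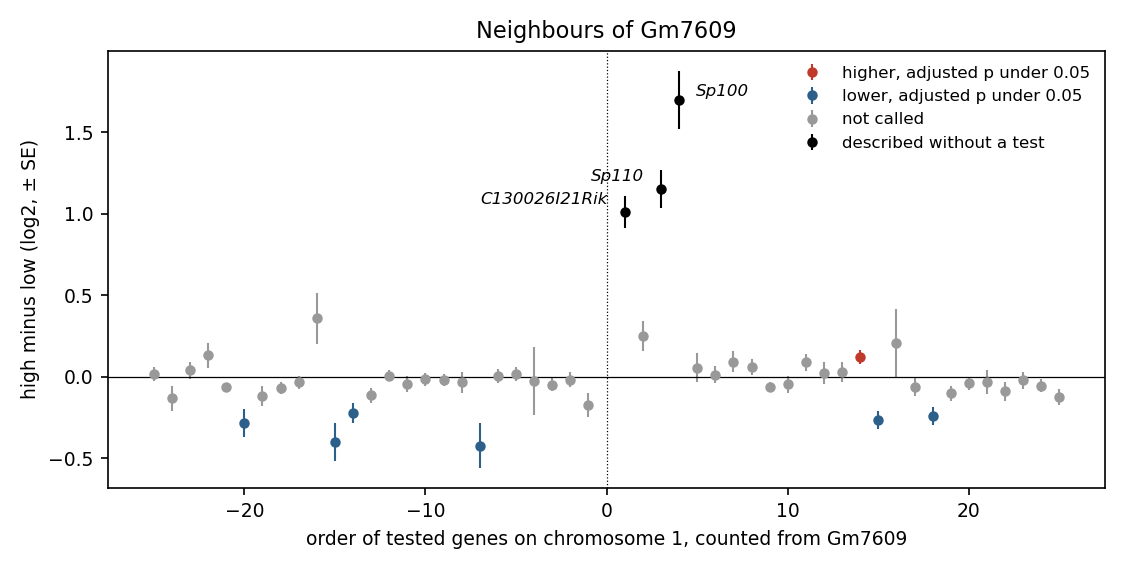
Difference between Gm7609-high and Gm7609-low tumours (y axis, log2, with the standard error) for the tested genes within 25 places of Gm7609 on chromosome 1 (x axis, order of tested genes), coloured by limma's call. C130026I21Rik, Sp110 and Sp100 lie above 1, and the called neighbours lie between -0.50 and 0.50.

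Farther along the chromosome more genes were lower than higher. From 51 to 100 places away 5 genes were higher and 18 lower of 100, over 100 and up to 200 places away 10 were higher and 31 lower of 200, and beyond that 35 were higher and 80 lower of 540. Over all genes the shares were 8.43% higher and 10.2% lower. Of the 100 genes at 51 to 100 places, 2 were higher and 10 lower without the 3 arrays, and 0 were higher and 2 lower by limma with the scores of fibroblast, endothelial, macrophage and T and NK cell genes held constant. Within 100 places of Gm7609 the called genes with the largest test statistics, beside the companions, were mostly lower. Xrcc5, which encodes the Ku80 subunit of DNA end joining, had 6.61, 7.46 and 7.94 in the Gm7609-high tumours, against 7.01, 8.08 and 8.61 in the Gm7609-low tumours (difference -0.64 ± 0.10 SE, adjusted p = 9.25e-06). Ikzf2, which encodes the transcription factor Helios, had 5.82, 6.63 and 7.18 in the Gm7609-high tumours, against 6.58, 7.22 and 7.83 in the Gm7609-low tumours (difference -0.62 ± 0.10 SE, adjusted p = 2.07e-05). Both genes were lower on the whole, with overlap in the middle of the range. By limma with the 4 cell type scores held constant both were still called. Xrcc5 was then at -0.47 (adjusted p = 0.00716) and Ikzf2 at -0.61 (adjusted p = 0.00216). Atic and Dtymk, which serve purine and thymidylate synthesis, were also lower, by -0.39 and -0.37. Ncl, the nucleolin gene, was lower by -0.27. With the 4 cell type scores held constant none of these 3 was called, at -0.23 (adjusted p = 0.109) for Atic, -0.12 (adjusted p = 0.356) for Dtymk and -0.15 (adjusted p = 0.144) for Ncl.

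Ppp1r7, Usp40, Aamp, Thap4 and C130036L24Rik were lower by -0.21 to -0.37, and none of the 5 was called with those scores held constant (adjusted p of 0.145 to 0.246). Higher genes were Efhd1, a calcium-binding mitochondrial protein gene, and Inpp5d, which encodes the blood-cell phosphatase SHIP1. Efhd1 had 5.10, 7.77 and 9.31 in the Gm7609-high tumours, against 5.24, 6.05 and 8.74 in the Gm7609-low tumours (difference 1.11 ± 0.27 SE, adjusted p = 0.00314). It was still called by limma with those scores held constant, at 1.34 (adjusted p = 0.0107). Inpp5d differed by 0.53 ± 0.13 SE (adjusted p = 0.00328), and by 0.08 with the scores held constant (adjusted p = 0.418).

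Interferon response genes were higher in the Gm7609-high tumours almost without exception. Of the 44 listed genes 38 were tested, 36 were higher and 0 lower, with a median difference of 1.15 against -0.02 for all genes. Leaving out the 3 arrays, 36 of 38 were higher, with a median of 1.16. Ifit3, at 0.15 (adjusted p = 0.0542), and Isg20, at 0.29 (adjusted p = 0.124), were not called. In bulk tissue, more cells that express a gene and more RNA per cell cannot be told apart.

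Among the regulators, Irf7, the transcription factor that amplifies type I interferon, had 7.22, 9.51 and 10.39 in the Gm7609-high tumours, against 5.63, 7.26 and 9.15 in the Gm7609-low tumours. The difference was 1.94 ± 0.27 SE, or 3.83-fold (adjusted p = 1.16e-06). Stat2 differed by 1.21 ± 0.16 SE (adjusted p = 7.11e-07) and Irf9 by 0.50 ± 0.12 SE (adjusted p = 0.00276). Most Gm7609-high tumours lay above most Gm7609-low tumours for Irf7, and the lower Gm7609-high tumours lay inside the range of the others.

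Among the effectors, Oas2, which makes the activator of the antiviral RNase L, had 6.60, 9.35 and 10.66 in the Gm7609-high tumours, against 5.83, 6.72 and 8.65 in the Gm7609-low tumours (difference 2.01 ± 0.27 SE, adjusted p = 8.07e-07). Usp18, the protease that removes ISG15 from proteins, had 6.72, 9.48 and 10.18 in the Gm7609-high tumours, against 5.25, 6.98 and 9.23 in the Gm7609-low tumours (difference 2.05 ± 0.31 SE, adjusted p = 7.95e-06). Isg15 itself, a ubiquitin-like modifier, had 7.04, 8.34 and 9.01 in the Gm7609-high tumours, against 6.22, 6.88 and 8.03 in the Gm7609-low tumours (difference 1.14 ± 0.16 SE, adjusted p = 1.54e-06). For all 3 the Gm7609-high median lay above the highest Gm7609-low tumour, while the lowest Gm7609-high tumours lay inside the Gm7609-low range.

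The largest difference of a called gene upward was at Apol9b, 2.20 ± 0.40 SE (adjusted p = 9.05e-05). Ifit1, which binds viral RNA, differed by 1.77 ± 0.30 SE and Bst2, which tethers budding virus, by 1.75 ± 0.28 SE. The RNA sensors Ifih1 and Dhx58 differed by 1.15 and 0.96, and the effector kinase gene Eif2ak2 by 0.67. Parp14 (1.22) and Lgals3bp (1.25) of the same list were among the 10 genes outside the neighbourhood with the largest upward statistics. The smallest called difference was 0.33, at Ifi27.

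The mean level of the 38 interferon response genes was 7.12, 8.40 and 8.70 in the Gm7609-high tumours, against 6.14, 7.02 and 8.25 in the Gm7609-low tumours. All 18 Gm7609-high tumours lay above the Gm7609-low median, and 11 lay above every Gm7609-low tumour. The other 7 lay inside the Gm7609-low range. Among the Gm7609-low tumours 17 of 32 lay below every Gm7609-high tumour, and mid33 was the highest at 8.25 with a Gm7609 level of 6.44. This is a description and carries no test.

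**Figure D3:**
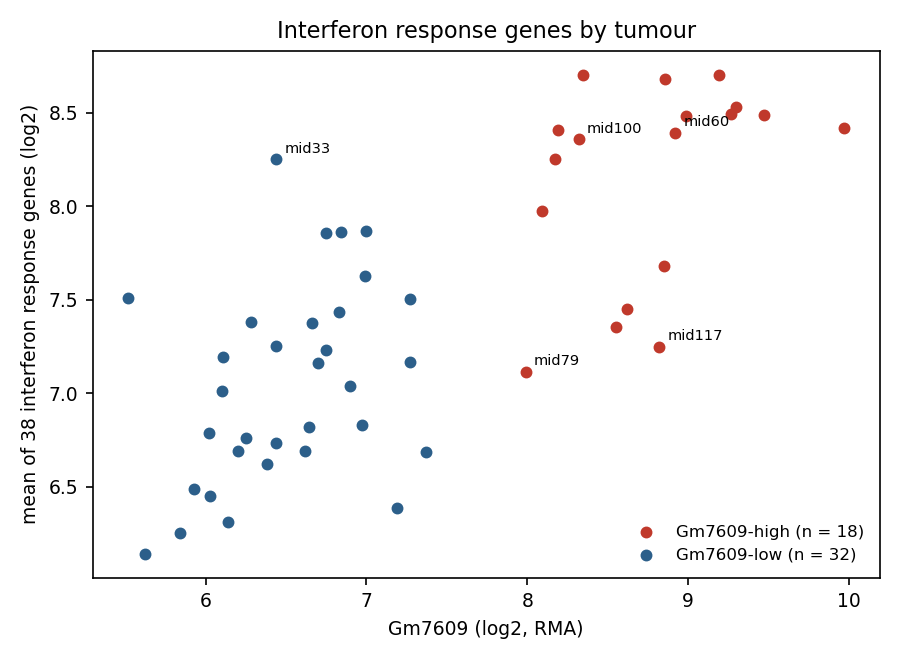
Mean log2 level of 38 interferon response genes (y axis) against Gm7609 (x axis, log2 RMA value) in each tumour, Gm7609-high in red and Gm7609-low in blue, with 5 tumours labelled. Of the 18 Gm7609-high tumours 11 lie above every Gm7609-low tumour, while mid79, mid117 and 5 others lie inside the Gm7609-low range.

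In the 7 Gm7609-high tumours with an interferon mean inside the Gm7609-low range, the cluster's genes did not move together at the probe sets used. In mid117, mid38, mid87 and mid177 that mean was 7.25, 7.36, 7.45 and 7.68. Sp100 in these 4 was 6.89, 7.24, 7.06 and 7.46, inside the Gm7609-low range, while C130026I21Rik was 7.81, 7.14, 7.23 and 7.16 and Csprs was 8.31, 8.04, 8.26 and 8.27, above every Gm7609-low tumour. Sp110 was 7.19, 7.69, 8.64 and 7.78, above every Gm7609-low tumour in mid87 alone. At the Sp100 probe sets that differed by 2.16 and 2.70, every Gm7609-high tumour lay above every Gm7609-low tumour. The lowest Gm7609-high values there were 7.61 and 5.99, against highest Gm7609-low values of 7.23 and 5.52. The place of Sp100 in these 4 tumours therefore depends on the probe set.

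In mid186 and mid9, with interferon means of 7.98 and 8.25, the order was the other way for Sp100 and Csprs. Sp100 was 7.94 and 8.61, above every Gm7609-low tumour, and Csprs was 7.48 in both, inside the Gm7609-low range. C130026I21Rik was 6.92 and 6.66, just above every Gm7609-low tumour. At another Csprs probe set, which differed by 1.66, the lowest Gm7609-high and the highest Gm7609-low value were both 7.48. At another C130026I21Rik probe set, which differed by 0.64, the highest Gm7609-low value, 7.17, lay above every Gm7609-high value. In mid79, whose array is one of the 3 set apart, the interferon mean was 7.12, Sp100 was 9.92, C130026I21Rik 6.45 and Csprs 7.49. Sp110 in mid186, mid9 and mid79 was 8.01, 8.14 and 8.67, above every Gm7609-low tumour. Among the Gm7609-low tumours, mid33 had an interferon mean of 8.25, a C130026I21Rik level of 5.88 and a Csprs level of 6.33, both below the Gm7609-low median. Its Sp100 and Sp110 levels were 7.26 and 7.44, both above the Gm7609-low median. These tumours were picked after their values were seen.

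When the interferon response score was held constant in the same model, an alternative added after the data were seen, the difference was 1.08 for C130026I21Rik, 1.16 for Csprs, 1.09 for Sp100 and 0.73 for Sp110. Over all genes 1.21% were then called higher and 1.8% lower, or 3.01% in either direction, against 2 of the 97 genes linked to Gm7609. The interferon list itself was left with 0 called genes and a median of -0.03, as the score is made from its members. Within the groups taken alone, limma called 0 genes for a slope on Gm7609, with 1051 rising and 739 falling at an unadjusted p under 0.05 in the Gm7609-high tumours and 294 rising and 458 falling in the Gm7609-low tumours. The slope was positive for 33 of 38 interferon genes in the Gm7609-high tumours (median 0.38 per log2 unit) and for 37 of 38 in the Gm7609-low tumours (median 0.35 per log2 unit). Among all 16634 tested genes it was positive for 9143 in the Gm7609-high tumours (median 0.0175) and for 8120 in the Gm7609-low tumours (median -0.0021). Genes of a list can move together, so these counts carry no test.

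Genes of related interferon functions followed in part. Of 16 tested interferon gamma targets 12 were higher and 0 lower, with a median difference of 0.60, where 8.43% of all genes were higher. Igtp, an immunity-related GTPase, had 7.14, 8.64 and 9.29 in the Gm7609-high tumours, against 5.52, 6.94 and 8.37 in the Gm7609-low tumours (difference 1.44 ± 0.21 SE, adjusted p = 2.20e-06). Iigp1 and Gbp3 differed by 1.86 and 1.62, and Irf1, the factor that carries the signal onward, by 0.51. Ido1 and Nos2, enzymes of tryptophan breakdown and nitric oxide synthesis, were not called, at -0.04 and 0.20.

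Of 13 tested genes of MHC class I presentation 10 were higher and 0 lower, with a median difference of 0.50. Without the 3 arrays 9 were higher. The share of all genes called higher was 8.43%, and 6.93% without the 3 arrays. H2-K1, a classical class I heavy chain, had 9.15, 10.64 and 11.08 in the Gm7609-high tumours, against 8.33, 9.32 and 10.29 in the Gm7609-low tumours (difference 1.13 ± 0.16 SE, adjusted p = 2.98e-06). Tap1, the peptide transporter, and Psmb8, an immunoproteasome subunit, differed by 1.13 and 1.15. Nlrc5, the transactivator of class I genes, differed by 1.53 ± 0.19 SE (adjusted p = 1.73e-07). Calr and Pdia3, chaperones that serve all glycoproteins, were not called, at -0.02 each. Of 7 class II genes 3 were higher, Ctss, H2-DMa and Ciita, by 0.54, 0.30 and 0.23, and 1 without the 3 arrays. With the 4 cell type scores held constant limma called 0 of the 7, with a median of -0.0035.

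Of 20 tested genes that sense or signal for interferon 8 were higher and 0 lower, with a median of 0.13. Without the 3 arrays 6 were higher. Of all genes 8.43% were higher, and 6.93% without the 3 arrays. Samhd1, a nucleotide hydrolase that limits viruses, differed by 0.69, Adar by 0.47 and Jak1 by 0.47. The type I receptor genes Ifnar1 and Ifnar2 differed by -0.0027 (adjusted p = 0.98) and -0.0076 (adjusted p = 0.95). Sting1 and Cgas, of the cytosolic DNA sensing pathway, were not called, at -0.26 and 0.15. Of the 3 tested Ifi200 genes, DNA sensors encoded elsewhere on chromosome 1, Ifi204 and Ifi207 were higher by 1.28 and 0.72. With the 4 cell type scores held constant neither was called, at 0.37 (adjusted p = 0.167) and 0.17 (adjusted p = 0.436). Of the 20 sensing and signalling genes 3 were then called higher, against 4.67% of all genes.

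Sp100's partners in PML nuclear bodies showed no common direction. Of 16 tested genes 1 was higher and 3 lower, with a median difference of -0.0022, where 8.43% and 10.2% of all genes were called. Daxx, the histone chaperone adaptor, was higher by 0.27 and Cbx5, which encodes heterochromatin protein HP1 alpha, lower by -0.42. Sumo2 and Atrx were lower by -0.17 and -0.14. Atrx was not called without the 3 arrays (adjusted p = 0.193), and neither was called with the 4 cell type scores held constant (adjusted p = 0.325 for Sumo2 and 0.617 for Atrx). Pml itself differed by 0.09 (adjusted p = 0.624). Of the 14 tested genes of the Sp100 list, which also holds neighbours and 2 genes from other chromosomes, those higher were the 3 companions and Csprs.

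**Figure D4:**
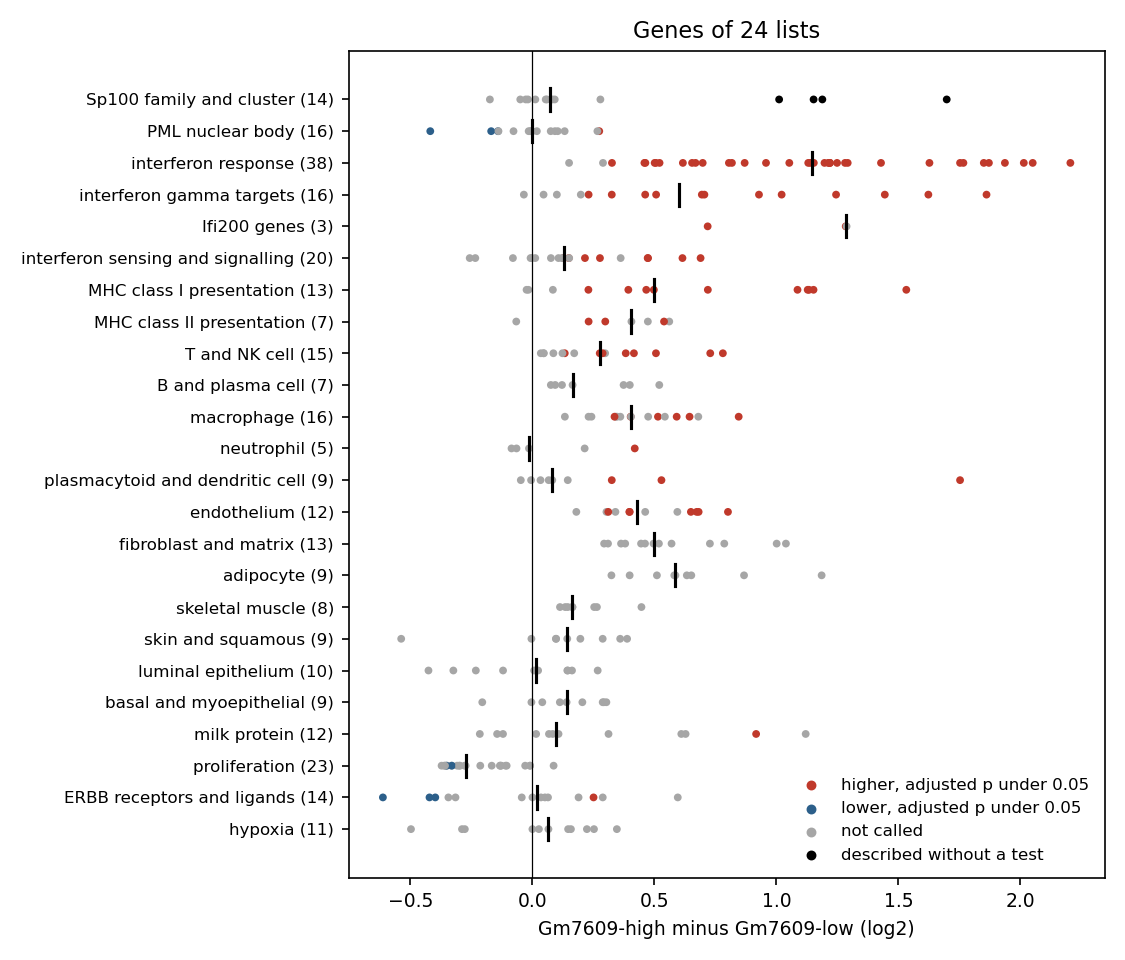
Difference between Gm7609-high and Gm7609-low tumours (x axis, log2) for each tested gene of 24 lists (y axis, number of tested genes in parentheses), coloured by limma's call, with the list's median as a bar. The interferon response list has the most called genes, 36 of 38, and a median of 1.15.

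Markers of other cells moved with the split as well. The counts that follow stand beside 8.43% of all genes called higher, and 6.93% without the 3 arrays. Of 15 T and NK cell genes 8 were higher and 0 lower, and 7 were higher without the 3 arrays. Their mean level was 5.07, 5.39 and 6.10 in the Gm7609-high tumours, against 4.93, 5.13 and 5.33 in the Gm7609-low tumours. Cd3g, of the T cell receptor complex, differed by 0.73 ± 0.11 SE (adjusted p = 5.41e-06) and Klrk1, which encodes the receptor NKG2D, by 0.42 ± 0.05 SE (adjusted p = 5.16e-07). Of 16 macrophage genes 6 were higher, and 3 without the 3 arrays, with a mean level of 6.78, 7.73 and 9.41 in the Gm7609-high tumours, against 6.75, 7.44 and 8.14 in the Gm7609-low tumours. Of 12 endothelial genes 7 were higher, and 3 without the 3 arrays. Of the 13 fibroblast genes limma called 0, with 5 higher at an unadjusted p under 0.05, and their median difference was 0.50.

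With the scores of these 4 lists held constant, 35 of 38 interferon response genes were higher (background 4.67% of all genes higher and 2.77% lower), with a median of 0.95. Of the 97 linked genes 3 were then called, against 7.43% of all genes in either direction. With those scores and without the 3 arrays together, 32 of 38 were higher, with a median of 0.86, and 1 of the 97 linked genes was called. Over all genes 2.41% were then higher and 1.65% lower, or 4.06% in either direction. The gamma targets then had 6 of 16 higher and the class I genes 6 of 13. The part of these cells in the wider difference was not tested.

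The lists for B and plasma cells, adipocytes, skeletal muscle, skin, luminal cells, basal cells and hypoxia had 0 genes called by limma. At an unadjusted p under 0.05, 2 B and plasma cell genes, 5 adipocyte genes and 1 basal gene were higher, 2 luminal and 2 hypoxia genes lower, and 0 muscle or skin genes were past it. Without the 3 arrays Dsg3 of the skin list (-0.82) and Cdh1 of the luminal list (-0.22) were called lower and Gata3 of the luminal list higher (0.36). With the 4 cell type scores held constant Krt18, Gata3 and Elf5 of the luminal list (0.49, 0.52 and 0.47) and Ldha of the hypoxia list (0.52) were higher and Mylk of the basal list lower (-0.35). Csf3r was the called member among 5 neutrophil genes, and Glycam1 among 12 milk protein genes, at 0.42 and 0.92, where 8.43% of all genes were higher. Neither was called without the 3 arrays, where Btn1a1 of the milk list was, at 1.42 (adjusted p = 0.0412). Bst2, Tcf4 and Irf8 were called among 9 genes of plasmacytoid and dendritic cells, and Bst2, which is also on the interferon response list, was the 1 still called without the 3 arrays. Of 23 proliferation genes Mcm3 and Tyms were lower, by -0.35 and -0.33, where 10.2% of all genes were lower, and neither was called without the 3 arrays. The transgene's own gene, Erbb2, had 9.02, 11.61 and 11.92 in the Gm7609-high tumours, against 11.36, 11.75 and 11.94 in the Gm7609-low tumours (difference -0.42 ± 0.14 SE, adjusted p = 0.0345). It differed by -0.14 without the 3 arrays (adjusted p = 0.0925). Nrg2 and Hbegf, ligands of the receptor family, were lower by -0.61 and -0.40, and Egfr higher by 0.25. Egfr was not called without the 3 arrays (adjusted p = 0.0806), where 3 of the 14 genes of this list were lower. Among them were Nrg2 (-0.42, adjusted p = 0.00122) and Hbegf (-0.43, adjusted p = 0.0207). With the 4 cell type scores held constant limma called 0 of the 14, with Nrg2 at -0.29 (adjusted p = 0.144) and Hbegf at -0.41 (adjusted p = 0.121). With those scores and without the 3 arrays together 2 were lower, as were 2 with the interferon score held constant.

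Outside the neighbourhood and the lists, the genes with the largest upward statistics included Slfn2, Phf11d, Uba7, Gbp9 and Gm12250. Slfn2, a Schlafen gene that keeps T cells quiescent, had 7.71, 8.98 and 9.47 in the Gm7609-high tumours, against 6.00, 7.10 and 8.49 in the Gm7609-low tumours (difference 1.66 ± 0.18 SE, adjusted p = 5.16e-09). Phf11d differed by 1.79 ± 0.20 SE (adjusted p = 2.52e-08), Uba7, the enzyme that activates ISG15, by 1.34 ± 0.16 SE (adjusted p = 4.10e-08) and Gbp9 by 1.57 ± 0.19 SE (adjusted p = 5.26e-08). With the interferon score held constant Slfn2 differed by 0.58 and Phf11d by 0.68. Znfx1, an RNA helicase of the antiviral response, and Trafd1 differed by 0.88 and 0.59.

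The genes with the largest downward statistics were of other kinds. Trpm3, a cation channel gene, had 4.39, 4.83 and 9.04 in the Gm7609-high tumours, against 5.75, 8.34 and 9.72 in the Gm7609-low tumours (difference -2.76 ± 0.32 SE, adjusted p = 4.58e-08). Cnmd, which encodes the cartilage protein chondromodulin, had 4.55, 5.38 and 8.81 in the Gm7609-high tumours, against 5.70, 9.26 and 10.87 in the Gm7609-low tumours (difference -2.98 ± 0.40 SE, adjusted p = 8.45e-07). Most Gm7609-high tumours were near the bottom of the scale for both, and a few reached the Gm7609-low levels. S100b, a calcium-binding protein gene, differed by -1.65 ± 0.20 SE, Col11a1, a fibrillar collagen gene, by -1.76 ± 0.24 SE and Bex4 by -1.29 ± 0.15 SE. Abca3, Bhlhb9, E130311K13Rik, Stox2 and Tusc3 differed by -0.49 to -0.78. With the interferon score held constant Trpm3 differed by -2.71 and Cnmd by -3.02.

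The genes whose level over the 50 tumours was most like that of Gm7609 were Csprs (Pearson r = 0.93), C130026I21Rik (0.88) and Sp110 (0.84), from the same cluster. Gm10499, Phf11d, Slfn2, H2-Q4, Nlrc5, H2-K1 and Tap1 followed at 0.79 to 0.81. The points share their arrays and the split, so these values are a description over 50 tumours and carry no p.

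By chromosome, a count added after the data were seen, called genes were unevenly spread. On chromosome 4, 273 of 1024 tested genes were higher (26.7%) and 24 lower (2.34%), against 8.43% and 10.2% over all genes. On chromosome 2, 215 of 1319 were higher (16.3%) and 20 lower (1.52%). The share lower was 21.7% on the X chromosome, 21.4% on chromosome 18, 17.2% on chromosome 3 and 14.6% on chromosome 1. Without the 3 arrays 236 genes on chromosome 4 and 281 on chromosome 2 were higher. With the interferon score held constant 51 genes on chromosome 4 were higher (4.98%) and 16 on chromosome 2 (1.21%), against 1.21% over all genes, so that chromosome 2 then stood at the general share. The median difference over the genes of chromosome 4 was 0.13, or 0.11 with that score held constant.

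For each tumour, the median deviation of a chromosome's genes from their means over all tumours was taken. On chromosome 4 it was above 0 in 14 of 18 Gm7609-high and 10 of 32 Gm7609-low tumours. On chromosome 2 it was above 0 in 11 of 18 Gm7609-high and 7 of 32 Gm7609-low tumours. On each of the other 18 chromosomes it was above 0 in a smaller share of the Gm7609-high than of the Gm7609-low tumours. Chromosome 1, with 0 of 18 Gm7609-high and 19 of 32 Gm7609-low tumours, was close to chromosome 9, with 2 of 18 and 21 of 32, and chromosome 3, with 2 of 18 and 20 of 32. When chromosome 4 was cut into 4 blocks of neighbouring genes, 24.2%, 20.7%, 30.2% and 31.8% of genes were higher. With the 4 cell type scores held constant the blocks had 6.64%, 9.77%, 19.2% and 26.3% higher, against 4.67% over all genes, and with the interferon score held constant 1.17%, 3.91%, 8.24% and 6.67%, against 1.21%. The first block was then near the general share. Its part in the other results was not tested.

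**Figure D5:**
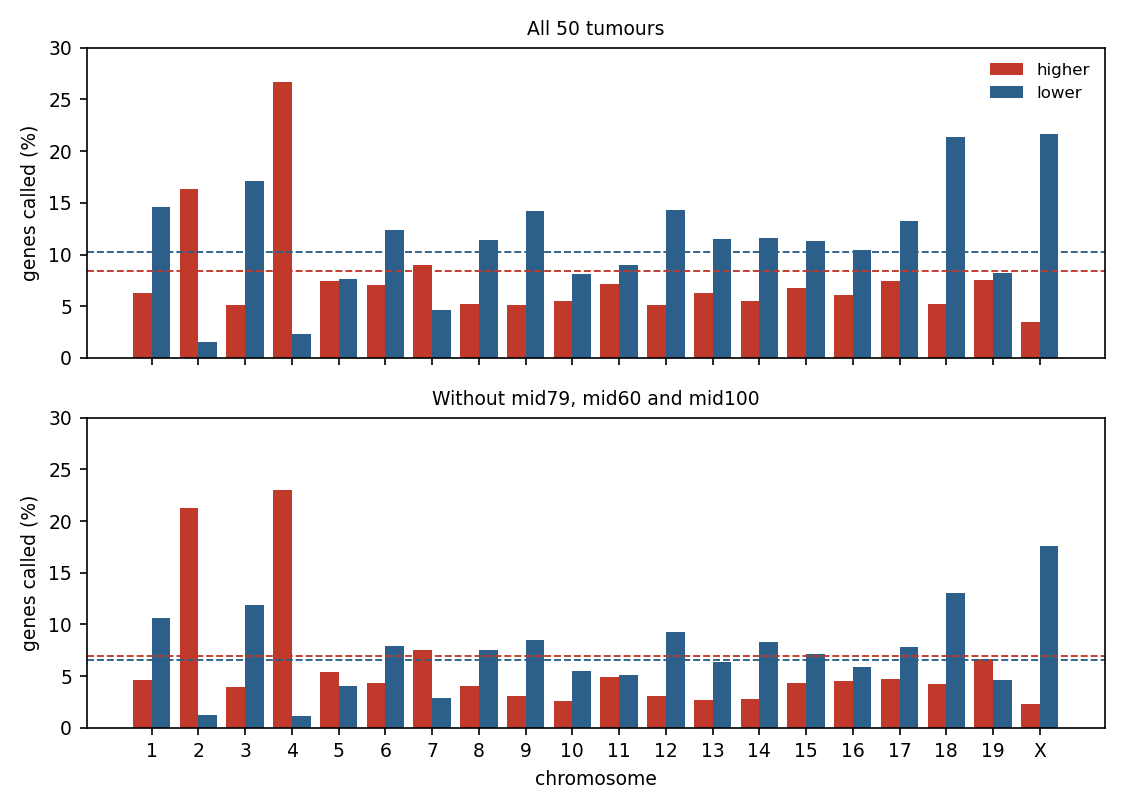
Percent of tested genes called higher (red) and lower (blue) in Gm7609-high tumours on each chromosome (x axis), with all 50 tumours above and without the 3 arrays set apart below, and dashed lines at the share over all genes. Chromosomes 4 and 2 have the largest shares of higher genes in both panels, 26.7% and 16.3% with all tumours.

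Of the genes called higher that have a promoter window, 76 of 1099 held the core of the interferon-stimulated response element (6.92%), as did 41 of 1307 called lower (3.14%). In the interferon response list 13 of 28 genes with a window held it (46.4%). These shares are descriptions beside the 3.57% of all tested genes.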

How the data were processed

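Total RNA of each tumour was hybridised as biotinylated cRNA to 1 Affymetrix array, per the labels. The authors deposited log2 values, made with RMA per the submitters' processing notes, which also name mm8. RMA as a method pulls the arrays to one distribution, so only relative differences within a gene are read. Of 34472 probe sets 23521 were annotated to 1 gene, 1814 to several and 9137 to none, and 23328 of the one-gene sets were matched to RefSeq GRCm38.p6, used for names and gene order. Each gene took its one-gene probe set with the highest mean, and genes with a mean under the 25th percentile (4.39) were left out.

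Tumours were split by Gm7609 as above. Each biopsy is 1 mouse's tumour as far as the labels say, so p-values measure the spread between tumours. The difference was fitted with limma 3.58.1 in R 4.3.3 (lmFit, eBayes with trend), with Benjamini-Hochberg adjustment over all 16634 tested genes. On simulated data with the same groups, 86% of genes given a log2 difference of 0.5 and 100% of those given 1.0 were recovered. There were 5 false calls among the genes given no difference. Each gene was drawn independently, so correlation between genes and the 3 arrays set apart were not part of the simulation. Tables and figures used Python 3.11.15, and promoters were aligned with Biopython 1.88. The members and the lists were chosen with earlier results of these data known.

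Named genes were the Sp100 list, the 15 called genes with the largest moderated statistics within 100 places of Gm7609 on chromosome 1, the 10 highest and 10 lowest elsewhere that held without 3 arrays, the leading 4 of each list, and the 10 most correlated with Gm7609; others named here, among them the flanking genes and further list members, were chosen after their values were seen. Alternatives varied the filter, probe set, normalisation, scale, array weights, arrays, covariates and split.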

Additional observations from a re-analysis of the deposited data

How the results depend on the processing

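Of the interferon response genes 32 to 37 of 38 were called higher under the alternatives that kept all 38, other than those that held the interferon score constant or fitted slopes within one group, and 34 of 35 with the filter at the 50th percentile. Their median difference lay between 0.86 and 1.23 in the same alternatives, except ranks and Gm7609 as a continuous predictor, which give no such median. With the interferon score held constant the counts were 201 higher, 300 lower, 2 linked genes and 0 interferon genes, with an interferon median of -0.0297, which follows from how the score is made. The slopes on Gm7609 within the Gm7609-high and the Gm7609-low tumours gave 0 calls for all 4 counts, with fewer tumours in each fit. Without mid79, mid60 and mid100, 1085 genes were lower and 7 linked genes were called. With 4 cell type scores held constant 776 genes were higher, 460 lower and 3 linked genes called, and with both changes 401, 275 and 1. With the filter at the 50th percentile 21 linked genes were called, where 1176 of all genes were higher and 1548 lower. The window of 50 tested genes then reaches farther, and its part in that count was not tested. Of the 131 named genes 79 were called and 52 not. Without the 3 arrays 66 of the 79 kept sign and call and 13 lost the call, while 3 of the 52 gained a call and 7 turned sign. With the 4 scores 45 of the 79 kept both, 32 lost the call and 2 turned sign, H2-DMa (-0.0035) and Irf8 (-0.0622), while 2 of the 52 gained a call and 26 turned sign. The cause of these shifts was not tested. The threshold and the widest gap gave the same groups. No paired analysis was possible because all tumours carry one label and their replicate numbers follow accession order only. The number of arrays limits the precision, and no genotype bears on whether the split follows inherited alleles.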
